A study of Homo sapiens with 12 samples.

Results

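The 78 mitochondrial ribosomal protein (MRP) genes were followed in 12 poly(A) RNA-seq libraries of U2OS cells, a human osteosarcoma line. A gene was a member if its symbol was MRPL or MRPS followed by a number and at most 1 letter from A to C, and if its mean over the 6 untreated libraries was at least 10. All 78 genes with such a symbol met the level, 49 named MRPL and 29 named MRPS, out of 22379 gene rows and 13811 genes that reached the same level and were tested. The libraries formed 6 groups of 2 replicates. Where 3 values stand together below without names, their order is NONT, NUP93-KO, EXOSC5-KO, the genotypes explained next. Every culture had been transfected with a plasmid for Cas9, a guide RNA and puromycin resistance, then selected. One guide was nontargeting (NONT), and the others were directed at NUP93, a scaffold protein of the nuclear pore (NUP93-KO), and at EXOSC5, a subunit of the RNA exosome (EXOSC5-KO). Each genotype was sampled untreated, which 1 field of the labels gives as DMSO, and after 8 h in 1 µM triptolide, which blocks the start of RNA polymerase II transcription through the XPB helicase of TFIIH. The knockouts were pooled transfected cells and not clones, and selection was 1 day shorter for both knockouts than for the nontargeting guide (2 against 3 days), so genotype and length of selection cannot be told apart. Spike-in RNA was added in proportion to counted cells, and the values are divided by size factors from that spike-in. They are meant to follow mRNA per cell, and an error in counting cells or adding spike-in shifts a whole library at once. In these bulk samples, a smaller fraction of cells that express a gene and less of its RNA in each cell cannot be told apart.

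The guides are shown because they define the genotypes. The NUP93 guide matched 1 place in its gene, the + strand of chr16:56748340-56748359 (GRCh38), inside coding exon 2 of 22. The EXOSC5 guide matched 1 place in its gene, the + strand of chr19:41397170-41397189, across the border of coding exon 1 of 6 and the following intron. Both were followed by an AGG motif that Cas9 requires.
NONT guide: cggcggtcacgaactccagc
NUP93 guide: gaacttacaggagatccagc
EXOSC5 guide: gaagttcttaccttgcagga

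The mitochondrial ribosome translates the few messages of the mitochondrial genome, all of which code for subunits of the respiratory chain and ATP synthase. Its RNAs come from mitochondrial DNA, but every protein of its large and small subunits is encoded in the nucleus, transcribed by RNA polymerase II, made in the cytosol and imported. Some of these proteins have a bacterial counterpart and others exist only in mitochondria. By their systematic names 51 members belong to the large subunit and 26 to the small subunit, and 46 carry a bacterial-type name and 31 a mitochondria-specific one. Symbols can mislead: MRPS18A (mL66) and MRPS30 (mL65) are proteins of the large subunit. MRPS36 is listed by RefSeq as KGD4, a subunit of the 2-oxoglutarate dehydrogenase complex, and belongs to neither subunit.

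Each library held 77 or 78 members above 0, at an approximate depth of 8.60 to 11.96 M reads, and the sum over all genes lay between 4.90 and 16.4 M units. Depth was read from the spacing of low values. The untreated NONT libraries stood apart from each other by a median of 0.51 on the log2 scale over all genes, replicate 2 being the higher, against at most 0.25 in the other pairs. The targeted genes were lower in their own knockouts, but neither passed the test. NUP93 was 1753 and 2489 in untreated NONT and 1395 and 1432 in untreated NUP93-KO (log2 fold change −0.56 ± 0.20 SE, adjusted p = 0.926). EXOSC5 was 299 and 481 in untreated NONT and 216 and 148 in untreated EXOSC5-KO (−1.08 ± 0.29, adjusted p = 0.151). Of 8 bone lineage markers 5 had an untreated mean of at least 10, while SP7 and IBSP were listed at 0. Of 10 markers of other cell types 3 reached that level (CDH1, EPCAM and KRT18), and PTPRC, CD3E and CDH5 were among those with an untreated mean under 1. In single libraries PTPRC reached 4.70 and CDH5 3.66, both in treated EXOSC5-KO replicate 2. The summed level of the other markers ran from 3241 to 13771 over all libraries, most of it KRT18, and its part in the results was not tested.

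Together the members made up a small and stable part of the transcriptome before treatment. Their sum was 59575 and 83335 units in untreated NONT, 62832 and 70930 in untreated NUP93-KO and 74190 and 69873 in untreated EXOSC5-KO. After triptolide it was 25300 and 22256 in NONT, 36275 and 38359 in NUP93-KO, and EXOSC5-KO gave 37026 and 36644. Treated and untreated libraries did not overlap in any genotype, and the treated NONT libraries were the lowest of all. The ratio of means was 0.333 in NONT (0.267 to 0.425 over the pairings of replicates), 0.558 in NUP93-KO (0.511 to 0.611) and, for EXOSC5-KO, 0.511 (0.494 to 0.530). The share of the members in the sum over all genes does not depend on the spike-in. It was 0.516% ± 0.014 (SD, n = 2) in untreated NONT, 0.529% ± 0.0085 for NUP93-KO and 0.518% ± 0.0042 for EXOSC5-KO. After triptolide it was 0.440% ± 0.020, 0.439% ± 0.0034 and 0.459% ± 0.0043, in each genotype under both untreated values. The typical gene lost share as well. With libraries scaled to the same sum, the median log2 fold change was −0.211, −0.275 and −0.205 for the members. Over all genes tested it was −0.317, −0.359 and −0.292.

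**Figure D1:**
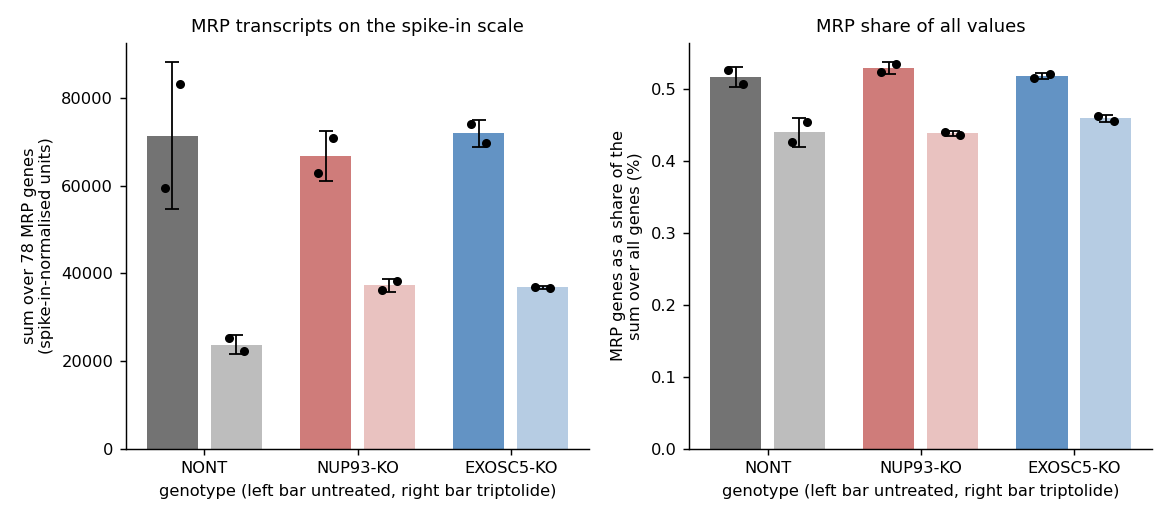
Sum over the 78 MRP genes in units of the spike-in scale (left) and their share of the sum over all genes in % (right), by genotype and treatment. Bars are means of 2 libraries, error bars are SD and points are libraries. All treated libraries lie under the untreated ones, by ratios of 0.333, 0.558 and 0.511 in the sum and of 0.852, 0.829 and 0.887 in the share. At the same sum over genes, the median log2 fold change is −0.211, −0.275 and −0.205 for the members and −0.317, −0.359 and −0.292 over all genes tested.

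Among single members, 77 of 78 were lower after triptolide in NONT (limma, adjusted p under 0.05), against 90.0% of all genes tested. None was called higher on the spike-in scale. With libraries scaled to the typical gene (median-of-ratios) 27 were called higher, against 27.2% of all genes. Scaled to the same sum 15 were, against 15.2%. In NUP93-KO 58 were lower (55.1% of all genes) and in EXOSC5-KO 63 were (64.3%), again on the spike-in scale. By median-of-ratios 26 and 30 were called higher, against 26.7% and 26.2% of all genes. On the spike-in scale the background for calls of higher values was 0.0507%, 0.138% and 0.0796% of all genes. There 0 members were called higher in each genotype, also at an unadjusted p under 0.05. The median log2 fold change of the members was −1.55 in NONT (−1.85 to −1.24 over pairings of replicates), −0.84 in NUP93-KO (−0.97 to −0.68) and, for EXOSC5-KO, −0.997 (−1.04 to −0.89). Over all genes tested the medians were −1.62, −0.92 and −1.08. As a family the MRP genes therefore lay near the typical gene of these cells. Values of treated and untreated replicates did not overlap for 77, 74 and 77 members, where 94.8%, 79.1% and 88.0% of all genes were lower without overlap. The member not called in NONT was MRPL45, and the 20 not called in NUP93-KO and 15 in EXOSC5-KO included MRPL11, MRPL23, MRPL24, MRPL33, MRPL48, MRPS21 and MRPS33 in both.

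Other families lay further from the typical gene. The 83 cytosolic ribosomal protein genes, whose products build the ribosome of the cytosol, had medians of −0.77, −0.09 and −0.27. Of them 82, 4 and 7 were called lower (90.0%, 55.1% and 64.3% of all genes). Their log2 fold changes in NONT spread by an SD of 0.20, against 0.78 for the MRP genes and 1.37 for all genes. The 79 nuclear-encoded genes of the respiratory chain had medians of −0.86, −0.15 and −0.30, with 78, 6 and 12 called lower. The 13 messages of the mitochondrial genome, which RNA polymerase II does not make, had medians of −0.41, 0.28 and 0.05, with 5, 0 and 0 called lower and 1 called higher in NUP93-KO. The ratio of the MRP sum to the sum of these messages, which is taken within a library so that the spike-in does not enter, was after triptolide 0.431, 0.452 and 0.480 of its untreated value.

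**Figure D2:**
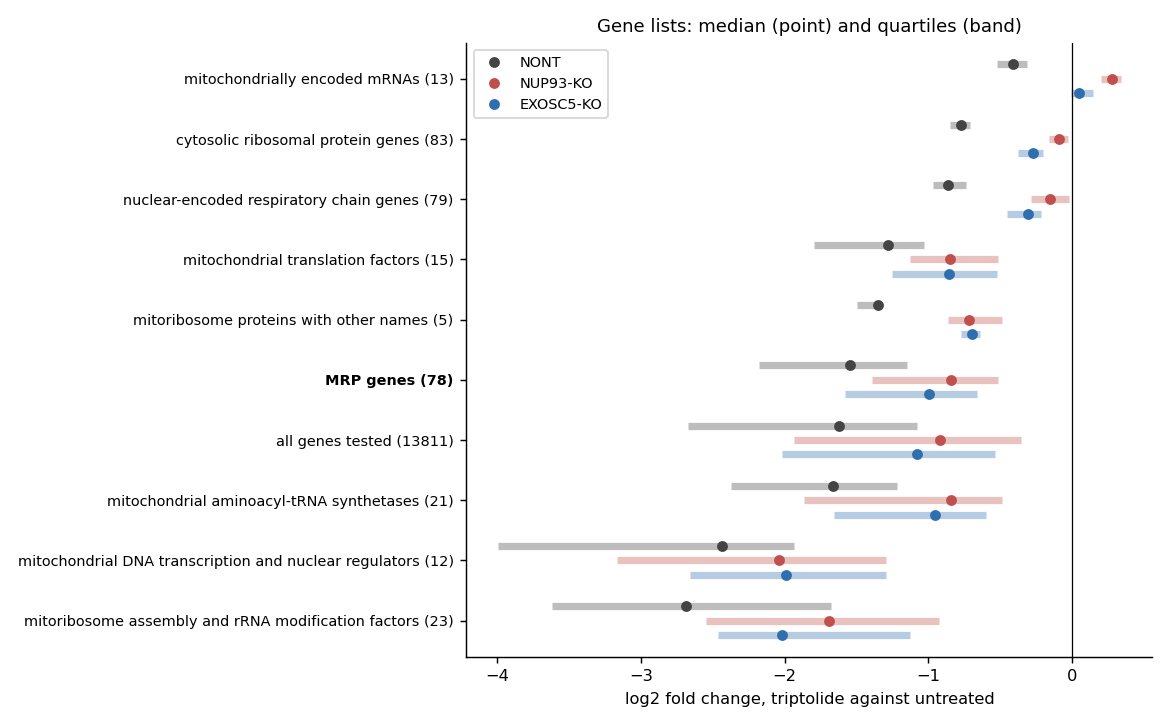
Log2 fold change after triptolide (x axis) for the MRP genes, other gene lists and all genes tested, with the number of genes in parentheses, on the spike-in scale. Points are medians and bands run from the lower to the upper quartile: the MRP genes (medians −1.55, −0.84 and −0.997) lie beside all genes and spread widely, while the cytosolic ribosomal protein genes form a narrow band nearer 0.

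The members differed from each other far more than the family differed from the rest. Leaving out MRPL45, between 3.35% and 55.3% of the untreated level was left in NONT (median 33.7%), 6.74% to 96.1% in NUP93-KO (median 54.5%) and 9.16% to 84.9% in EXOSC5-KO (median 49.7%). The lowest values belonged to MRPL44 (mL44), a protein with a ribonuclease III fold in the large subunit. MRPL44 was 456 and 712 in untreated NONT and 25.9 and 13.2 after triptolide. It was 474 and 486 before and 27.9 and 36.8 after in NUP93-KO, and 599 and 550.0 before and 52.5 and 52.7 after in EXOSC5-KO. Every treated library was thus more than 10-fold under both untreated libraries of its genotype. The log2 fold changes of MRPL44 were −4.87, −3.86 and −3.42 (each ± 0.33 SE; adjusted p = 1.85e-09, 7.06e-08 and 2.12e-07), and it was called lower on every scale tried.

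MRPS30 (mL65), in the large subunit despite its symbol, followed. It was 894 and 1168 before and 71.8 and 75.5 after triptolide in NONT, 975 and 1257 before and 153 and 171 after in NUP93-KO, and 1176 and 1109 before and 182 and 160.2 after in EXOSC5-KO. The log2 fold changes were −3.78, −2.77 and −2.73 (each ± 0.22 SE; adjusted p = 4.10e-10, 3.74e-08 and 3.22e-08). Next in NONT came MRPL36 (bL36m), one of the smallest proteins of the large subunit, at −3.24 ± 0.25, MRPS26 (mS26) at −3.20 ± 0.27 and MRPL46 (mL46) at −3.06 ± 0.27. These neighbours did not differ beyond their errors. MRPL36, MRPS26 and MRPL46 were −2.25, −2.30 and −2.20 in NUP93-KO, while EXOSC5-KO gave −1.91, −2.43 and −2.02, all called lower. MRPL34 (bL34m) was among the deepest 5 in NUP93-KO at −2.33 ± 0.31 and MRPS31 (mS31) in EXOSC5-KO at −2.43 ± 0.31.

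At the other end stood MRPL33 (bL33m) and MRPL24 (uL24m), both of the large subunit. MRPL33 was 624 and 848 before and 399 and 415 after triptolide in NONT, 625 and 695 before and 547 and 625 after in NUP93-KO, and 802 and 859.6 before and 698 and 681 after in EXOSC5-KO. On the spike-in scale it was called lower in NONT (−0.84 ± 0.20, adjusted p = 0.000997) and stood at −0.17 (adjusted p = 0.488) and −0.27 (adjusted p = 0.239) in the knockouts, but on the median-of-ratios scale it was higher in all 3 genotypes (0.81, 0.73 and 0.81). MRPL24 was 699 and 1051 before and 510.4 and 435 after in NONT, 789.6 and 874 before and 776 and 822 after in NUP93-KO, and 1171 and 1064 before and 990.4 and 907 after in EXOSC5-KO. The log2 fold changes of MRPL24 were −0.86 ± 0.21, −0.06 ± 0.21 and −0.24 ± 0.21, and on the median-of-ratios scale 0.79, 0.85 and 0.84. In NUP93-KO the values of MRPL24, MRPL33 and MRPL48 (mL48) overlapped between treated and untreated libraries. MRPL11, MRPL42 (mL42), MRPL23 (uL23m) and MRPS33 (mS33) completed the members with the smallest losses in at least 1 genotype, from −1.27 to −0.91 in NONT, from −0.27 to −0.16 in NUP93-KO and from −0.52 to −0.24 in EXOSC5-KO. The row of MRPL23 is identical to that of an unmatched gene ID, so its level may be split between copies.

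**Figure D3:**
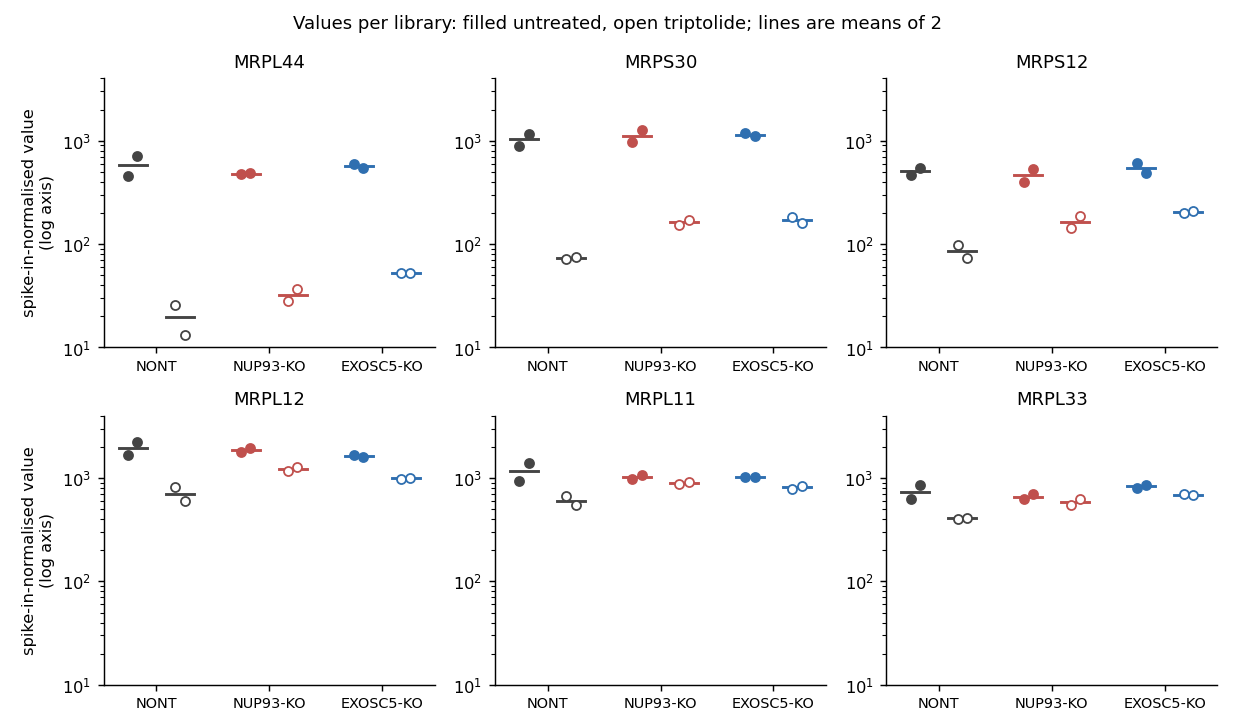
Spike-in-normalised value (log axis) of 6 MRP genes in every library, by genotype, with filled points for untreated, open points for triptolide and lines at means of 2. MRPL44 and MRPS30 drop furthest, from 456 and 712 to 25.9 and 13.2 for MRPL44 in NONT, while MRPL33 goes from 624 and 848 to 399 and 415; on the median-of-ratios scale MRPL11 and MRPL33 are higher after triptolide.

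MRPL10 (uL10m), MRPL11 (uL11m) and MRPL12 (bL12m) form the stalk and its base, where translation factors dock, and their losses differed in size. MRPL10 was 785 and 1264 before and 153 and 120 after triptolide in NONT (−2.87 ± 0.24), MRPL12 was 1672 and 2247 before and 814 and 595 after (−1.48 ± 0.20), and MRPL11 was 933 and 1384 before and 668 and 544 after (−0.91 ± 0.21). The same order held in the knockouts, with −2.04, −0.62 and −0.19 in NUP93-KO and, for EXOSC5-KO, −2.28, −0.71 and −0.33, and MRPL11 was not called in either (adjusted p = 0.448 and 0.159). Within a library, where no scaling enters, the ratio of MRPL10 to MRPL12 lay between 0.470 and 0.684 in the 6 untreated libraries and between 0.187 and 0.234 in the 6 treated ones. The ratio of MRPL10 to MRPL11 lay between 0.842 and 1.10 untreated and between 0.221 and 0.278 treated. For MRPL44 over MRPL33 the ranges were 0.640 to 0.839 and 0.0318 to 0.0774.

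A set of 3 paralogs is related to bacterial bS18, and no test between them was run. MRPS18A (mL66) was 806 and 1292 before and 255 and 223 after triptolide in NONT (−2.09 ± 0.23), MRPS18B (mS40) was 1263 and 2070.1 before and 417 and 376 after (−2.03 ± 0.22), and MRPS18C (bS18m), the paralog with the place of the bacterial protein, was 403 and 550.2 before and 155 and 166 after (−1.55 ± 0.23). In NUP93-KO they were −1.46, −1.18 and −0.66 and in EXOSC5-KO −1.57, −1.30 and −1.04, all called lower. The ratio of MRPS18A to MRPS18C was 2.00 to 3.01 in untreated and 1.33 to 2.05 in treated libraries, ranges that overlap. MRPS12 (uS12m), a protein of the decoding centre, was 464 and 545 before and 98.6 and 73.9 after in NONT (−2.55 ± 0.26, adjusted p = 1.42e-07), with −1.49 in NUP93-KO and −1.39 in EXOSC5-KO. MRPL58 (mL62), a peptidyl-tRNA hydrolase built into the large subunit, was 454 and 555 before and 108 and 106 after in NONT (−2.22 ± 0.22, adjusted p = 1.14e-07), with −1.29 in both knockouts.

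**Figure D4:**
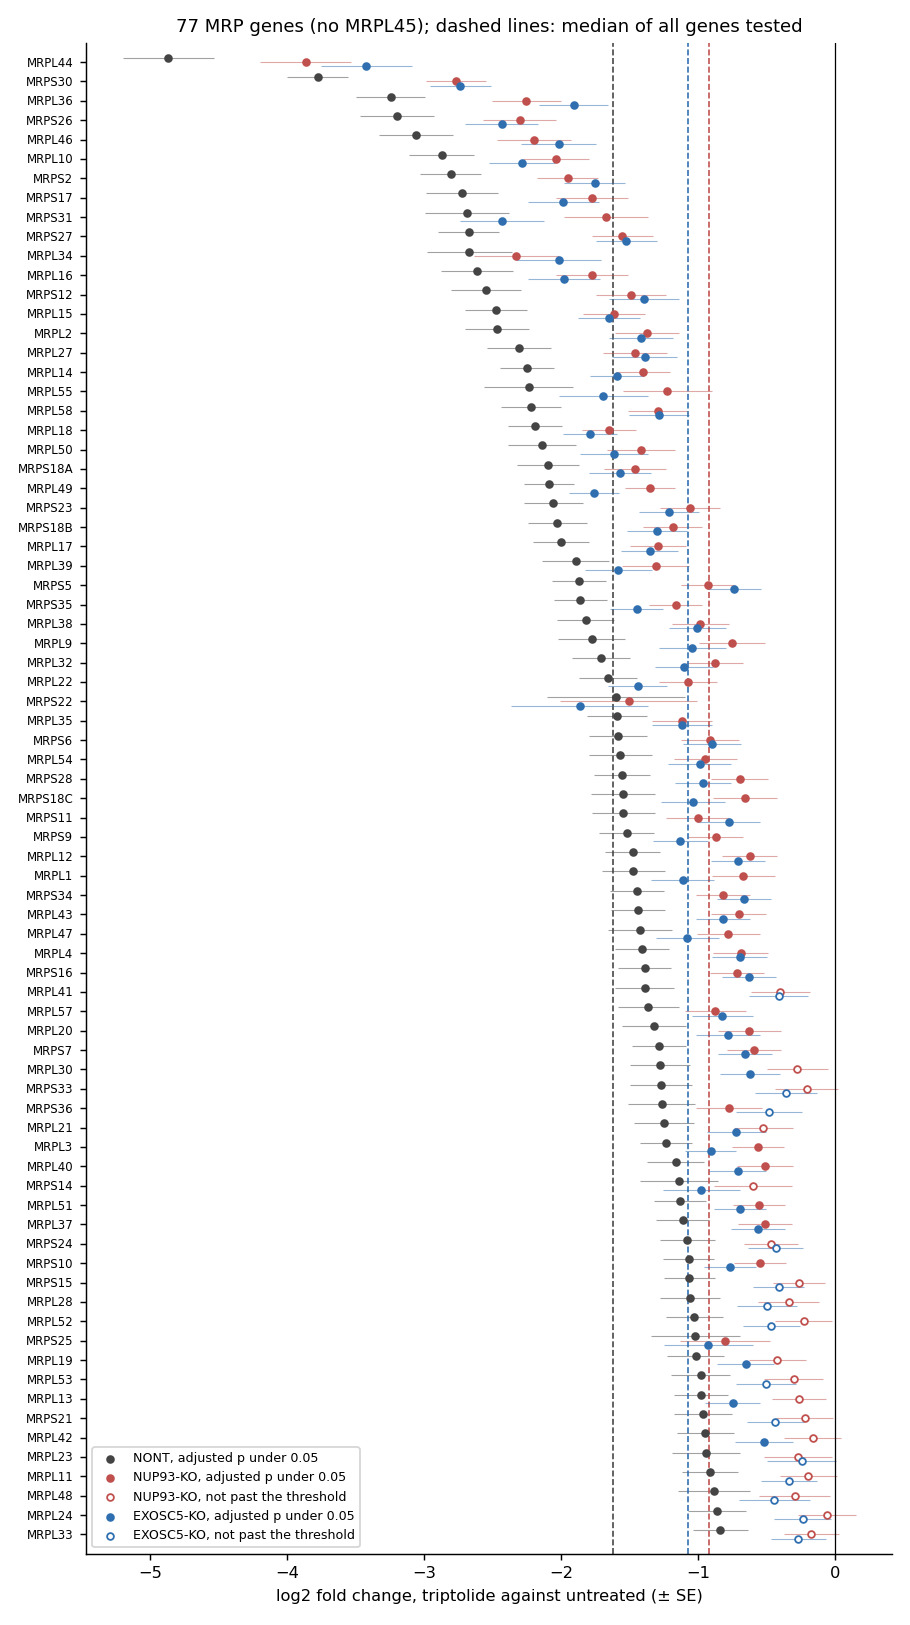
Log2 fold change after triptolide against untreated on the spike-in scale (x axis, ± SE) for 77 MRP genes without MRPL45, ordered by the value in NONT, with filled points past an adjusted p of 0.05. Dashed lines are the medians of all genes tested (−1.62, −0.92 and −1.08), and members run from −4.87 (MRPL44) to −0.84 (MRPL33) in NONT. On the median-of-ratios scale 27, 26 and 30 members are called higher, against 27.2%, 26.7% and 26.2% of all genes.

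The order of the members was shared between genotypes, each measured in its own libraries. Across 77 members without MRPL45, Pearson's r of the log2 fold changes was 0.968 for NONT with NUP93-KO, 0.931 for NONT with EXOSC5-KO and 0.955 for the knockouts with each other, and across all 13811 genes it was 0.870, 0.857 and 0.854. These describe genes and not replicates, and the points of a comparison share 4 libraries per axis. Of the 10 deepest members 7 were common to all 3 genotypes (MRPL10, MRPL36, MRPL44, MRPL46, MRPS17, MRPS26 and MRPS30), and of the 10 smallest losses 5 were (MRPL11, MRPL23, MRPL24, MRPL33 and MRPS21). On the median-of-ratios scale, on which the typical gene stands at 0, 17 members were called lower in all 3 genotypes, against 23.1% of all genes, and 24 were called higher in all 3, against 20.2%. None was called lower in 1 genotype and higher in another. The share of all genes called both ways was not counted, so this is no result about the members. MRPL44 was −3.26, −2.97 and −2.35 on that scale, MRPL10 −1.22, −1.13 and −1.21, and MRPL11 0.74, 0.71 and 0.75. With libraries scaled to the same sum, 30 were called lower in all 3 (30.4% of all genes) and 6 higher (9.35%).

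**Figure D5:**
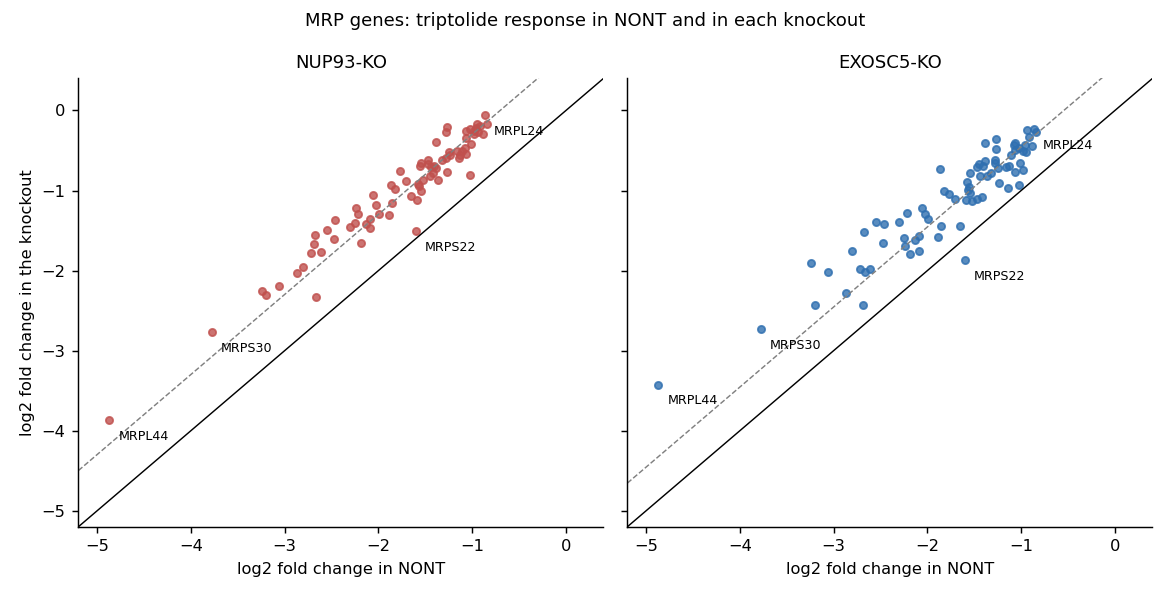
Log2 fold change after triptolide on the spike-in scale in NONT (x axis) against NUP93-KO (left) and EXOSC5-KO (right) for 77 MRP genes without MRPL45. The solid line marks equal values and the dashed line is shifted by the difference of the medians of all genes: points follow the dashed line (r = 0.968 and 0.931 over 77 members), with MRPS22 nearest the solid line on the left and below it on the right.

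Members were grouped by subunit and by type of systematic name, and no test between the groups was run. The type of name is not ancestry: MRPS18A and MRPS18B, related to a bacterial protein, carry mitochondria-specific names. In each genotype the ranges between quartiles overlapped in both groupings. The median in NONT was −1.48 for the large and −1.55 for the small subunit, and −1.53 for bacterial-type and −1.60 for mitochondria-specific names. In NUP93-KO these medians were −0.78, −0.89, −0.73 and −0.98, and in EXOSC5-KO −1.04, −0.97, −0.97 and −1.21. Of the 20 deepest members in NONT 14 were of the large subunit, as were 14 of the 20 with the smallest losses. Across the 77 members, r with the log2 fold change in NONT was −0.28 for coding length, 0.13 for exon number, 0.05 for transcript length, −0.09 for GC content and 0.10 for the untreated mean, all weak. Per kilobase of annotated transcript, the untreated level was highest for MRPS24 (2589 units per kb), MRPL51 (2415) and MRPL12 (1805), and lowest for MRPS22 (98.2), MRPS25 (46.7) and MRPL42 (35.3), leaving out MRPL45. The annotated transcript of MRPL42 is 15557 bases long, which lowers its value per kilobase.

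Promoters of the members at both ends are shown because the members move apart in the same order in each genotype. RefSeq windows (GRCh38.p14) reached from 250 bases before to 50 after each start, and 69 of 78 members matched by symbol, with 85 windows in all. Windows were searched on both strands for 7 short motifs: CGCANGCG (NRF1), CCGGAAG (ETS factors such as GABP), AAGATGGC (YY1), GGGCGG (SP1), CCAAT (bound by NF-Y), the E-box word CACGTG and the TATA box word TATAAA. Matches are in capitals in the windows of the deepest and the least changed pair of members with a single window, MRPL45 left out. Their places are chr2:223957213-223957512 on the + strand for MRPL44, chr5:44808697-44808996 on the + strand for MRPS30, chr1:156741039-156741338 on the − strand for MRPL24 and chr2:27771469-27771768 on the + strand for MRPL33.
MRPL44: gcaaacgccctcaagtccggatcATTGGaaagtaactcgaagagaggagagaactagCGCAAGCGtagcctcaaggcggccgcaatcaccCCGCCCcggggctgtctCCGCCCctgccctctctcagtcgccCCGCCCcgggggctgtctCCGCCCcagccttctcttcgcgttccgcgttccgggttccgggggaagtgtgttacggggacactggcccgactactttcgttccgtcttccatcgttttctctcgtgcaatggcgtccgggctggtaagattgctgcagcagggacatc
MRPS30: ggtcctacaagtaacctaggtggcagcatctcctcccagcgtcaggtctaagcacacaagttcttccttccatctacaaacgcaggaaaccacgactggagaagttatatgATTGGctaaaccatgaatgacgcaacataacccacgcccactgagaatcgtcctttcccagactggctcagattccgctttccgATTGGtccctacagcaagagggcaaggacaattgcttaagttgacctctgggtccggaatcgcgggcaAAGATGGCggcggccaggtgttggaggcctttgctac
MRPL24: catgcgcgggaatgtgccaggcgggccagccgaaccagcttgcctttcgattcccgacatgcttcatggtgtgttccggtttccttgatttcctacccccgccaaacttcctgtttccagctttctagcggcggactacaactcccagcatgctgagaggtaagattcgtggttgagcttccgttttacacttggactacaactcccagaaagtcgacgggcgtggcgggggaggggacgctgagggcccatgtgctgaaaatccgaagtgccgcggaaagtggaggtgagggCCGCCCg
MRPL33: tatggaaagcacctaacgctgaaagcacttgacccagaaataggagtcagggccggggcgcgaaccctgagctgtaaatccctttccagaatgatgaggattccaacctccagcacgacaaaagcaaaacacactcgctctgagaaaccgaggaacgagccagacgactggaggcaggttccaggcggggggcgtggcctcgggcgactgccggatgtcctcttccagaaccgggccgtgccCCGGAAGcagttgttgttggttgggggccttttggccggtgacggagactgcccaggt

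MRPL44 held 1 NRF1 word, 4 GGGCGG words and 1 CCAAT word, MRPS30 held 1 YY1 word beside its start and 2 CCAAT words, MRPL24 held 1 GGGCGG word and MRPL33 held 1 ETS word. Over the 85 windows, CCGGAAG was in 38.8%, against 10.3% of all 35116 windows in the table, and AAGATGGC was in 27.1%, against 2.89%. CGCANGCG was in 18.8% (all windows 10.0%), GGGCGG in 60.0% (45.0%), CACGTG in 10.6% (7.26%), CCAAT in 32.9% (34.6%) and TATAAA in 3.53% (11.5%). In 0 member windows did an ETS word and a YY1 word share bases. Of the 20 matched members with the deepest change in NONT, 8 held an ETS word, 8 a YY1 word, 16 a GGGCGG word and 11 a CCAAT word. Of the 20 with the smallest change these counts were 10, 6, 10 and 3. MRPL45, whose change could not be followed, was counted among the latter by its fitted value. A word in a window is a description of its letters and not a site of binding.

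Without triptolide no member passed the test between a knockout and NONT on the spike-in scale. In NUP93-KO against NONT limma called 0 members lower (0.00724% of all genes) or higher (0.0145%), 0 had an unadjusted p under 0.05 (2.45% of all genes lower and 1.75% higher), and the median log2 fold change was −0.08, against −0.09 over all genes. This median ran from −0.41 to 0.23 over pairings of replicates, and was −0.31 without untreated NONT replicate 1 and 0.15 without replicate 2, so its direction rested on those libraries. The values furthest from 0 were −0.35 ± 0.28 for MRPS14 (uS14m), −0.35 ± 0.22 for MRPS27 (mS27), 0.16 ± 0.25 for MRPL36 and 0.40 ± 0.33 for MRPS25 (mS25), each with an adjusted p of 1. In EXOSC5-KO against NONT limma called 0 members lower (0.0362% of all genes) or higher (0.485%), 2 (MRPL36 and MRPS6) had an unadjusted p under 0.05, both higher (6.03% of all genes, with 2.46% lower), and the median was 0.03, against 0.07. It ran from −0.23 to 0.31 over pairings, and was −0.21 and 0.26 without untreated NONT replicate 1 and 2. MRPS6 (bS6m), a protein of the small subunit, was 549 and 742 in NONT and 1003 and 929.5 in EXOSC5-KO (0.60 ± 0.21, adjusted p = 0.372), so the values did not overlap. Scaled to the same sum it passed the test (0.57, adjusted p = 0.0111), as it did on the median-of-ratios scale (0.50, adjusted p = 0.0212). On these scales 2.78% and 2.06% of all genes were called higher. The lowest values were −0.33 ± 0.22 for MRPS27 and −0.28 ± 0.27 for MRPS26. Values did not overlap for 2 members lower and 1 higher in NUP93-KO, where 12.8% and 7.93% of all genes did so. In EXOSC5-KO this held for 2 lower and 7 higher, with 9.20% and 19.2% of all genes.

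The log2 fold changes of the members lay nearer 0 in the knockouts than in NONT, and the difference passed the test for 0 of them. The difference of log2 fold changes had a median of 0.73 for NUP93-KO minus NONT (0.74 over all genes) and of 0.60 for EXOSC5-KO minus NONT (0.57), with ranges over pairings of replicates of 0.28 to 1.19 and 0.19 to 0.98. Without untreated NONT replicate 1 these medians were 0.99 and 0.86, and without replicate 2 they were 0.51 and 0.35. In the first, limma called 0 members in either direction, 58 had an unadjusted p under 0.05, all in the direction of a smaller loss (41.3% of all genes), and the smallest adjusted p was 0.0606, for MRPS27 (1.12 ± 0.32). At the adjusted threshold the background was 0.0145% of all genes for a greater and 0.760% for a smaller loss. In the second, 0 members were called, 33 had an unadjusted p under 0.05, all for a smaller loss (23.1% of all genes), and 0.0145% and 0.319% of all genes were called. The largest values there were 1.45 ± 0.47 for MRPL44 (adjusted p = 0.167) and 1.34 ± 0.36 for MRPL36 (adjusted p = 0.123), and MRPS22 (mS22) stood at −0.27 ± 0.71. MRPS22 and MRPS25 had the smallest differences in NUP93-KO, 0.09 ± 0.71 and 0.22 ± 0.46. Without untreated NONT replicate 1, the lower of the pair, 70 and 55 members were called as losing less (51.0% and 38.2% of all genes), and without treated NONT replicate 1, 11 and 1 were (18.0% and 2.93%). Both comparisons share the 4 NONT libraries. Scaled to the same sum the medians were −0.04 and 0.06, against −0.02 and 0.04 over all genes. On the median-of-ratios scale they were −0.02 and 0.03, against 0.004 and 0.02, so the first changed sign on both. Both scalings set the sum or the typical gene equal between libraries, which takes out a shift shared by all genes. At the same mitochondrial mRNA sum the medians kept their sign, at 0.07 and 0.15, against 0.09 and 0.13 over all genes.

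MRPL45 (mL45), which anchors the ribosome to the inner membrane, could not be followed. It was listed at 0 in 10 of 12 libraries and at 88.7 in untreated EXOSC5-KO replicate 1 and 12.2 in treated NUP93-KO replicate 1. It entered the family through that first library alone, and no fold is given for it, although its fitted values enter the counts and medians over 78 members. MRPS22 was the member with the next lowest untreated mean, at 68.1 and 147 in NONT, 57.0 and 147 in NUP93-KO, with 125 and 166 in EXOSC5-KO, and its SE of 0.50 was more than that of any other member but MRPL45.

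Genes that work with the mitochondrial ribosome differed widely in their losses, where 90.0%, 55.1% and 64.3% of all genes were called lower. Its 5 proteins with other names (PTCD3, DAP3, CHCHD1, AURKAIP1 and GADD45GIP1) had medians of −1.35, −0.71 and −0.69, with 5, 3 and 5 called lower and PTCD3, which binds the small subunit, the lowest in NONT at −1.65. Of 15 mitochondrial translation factors 14, 8 and 11 were called lower, with medians of −1.28, −0.85 and −0.86 (all genes −1.62, −0.92 and −1.08). Their ends in NONT were MTRFR, which rescues stalled ribosomes, at −5.13, and SLIRP, an RNA-binding partner of LRPPRC, at −0.77. Of 23 assembly and rRNA modification factors 23, 19 and 23 were called lower, with medians of −2.69, −1.69 and −2.02, under the medians of the members and of all genes in each genotype. The helicase DDX28 was lowest in each (−5.90, −6.05 and −6.25) and NGRN highest (−0.97, −0.19 and −0.60). Of 21 genes listed as mitochondrial aminoacyl-tRNA synthetases 20, 13 and 16 were called lower, with medians of −1.66, −0.84 and −0.95. The list includes GATB, GATC and QRSL1, which are amidotransferase subunits and not synthetases, and KARS1 and GARS1, which also serve the cytosol. The listed genes ran from MARS2 at −7.22, −7.08 and −7.08 to IARS2 at −0.81, −0.16 and −0.40. Of 12 genes for mitochondrial DNA transcription and its nuclear regulators 11, 12 and 12 were called lower, with medians of −2.44, −2.04 and −1.99. The lowest was the coactivator PPRC1 (−5.47, −4.93 and −5.16), and GABPA, an ETS factor, was −1.52, −1.01 and −1.13.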

How the data were processed

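The values the authors deposited are a spike-in-normalised signal per gene. Per the labels and the study's methods, the authors pseudoaligned reads with kallisto 0.46.1 to Ensembl GRCh38 transcripts and the 92 ERCC sequences, used tximport to sum them by gene, dropped genes that are not protein-coding, and applied size factors that DESeq2 estimated from the ERCC rows. Only 37.5% to 41.9% of values up to about 20 reads lay within 0.1 of a whole number of reads, so read numbers could not be had back and count models were left aside. kallisto divides reads among similar transcripts, which makes near-identical copies uncertain.

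Symbols, coordinates and lengths came from GENCODE release 44 (GRCh38), which matched 19584 of 22379 gene IDs. Values were analysed as log2(value + 1), which understates the change of low genes. A model of 6 group means was fitted to all 12 libraries and 13811 genes with limma 3.58.1 (R 4.3.3, mean-variance trend), tested on simulated data, with Benjamini-Hochberg adjustment over all genes and a threshold of 0.05. Contrasts were triptolide within each genotype, each knockout against NONT untreated, and the difference in response. Nothing states that replicates came from separate cultures, so p-values measure the spread between these samples, which may be technical. The members, lists and tests were chosen with earlier results of these data known. By rule the text names the 5 deepest and 5 highest members per genotype, the 2 furthest each way where none passed, the ends of each other list, the 3 highest and lowest levels and 9 members fixed by role. MRPS17 and MRPS21, the members counted at both ends of the order, and the genes that passed on another scale were named after their values were seen. Alternatives were other pseudocounts, filters, scalings and variance models, a replicate block and leaving out each library.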

Additional observations from a re-analysis of the deposited data

How the results depend on the processing

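For part of the members the direction depended on the scale. Scaled to the same sum, 33, 37 and 32 members were called lower (NONT, NUP93-KO, EXOSC5-KO throughout), against 38.2%, 39.3% and 36.7% of all genes. Called higher were 15, 11 and 12, against 15.2%, 13.9% and 14.7%. By median-of-ratios 26, 25 and 21 were lower, against 30.3%, 29.7% and 28.7% of all genes. On that scale 27, 26 and 30 were higher, against 27.2%, 26.7% and 26.2%. At the same mitochondrial mRNA sum the direction was kept. There 75, 75 and 73 members were called lower, against 81.2%, 76.5% and 75.1% of all genes. Called higher were 0, 0 and 0, against 0.080%, 0.072% and 0.043%. Log2 fold changes that turned positive were, at the same sum and by median-of-ratios: in NONT MRPL11 (0.42, 0.74), MRPL24 (0.48, 0.79), MRPL33 (0.50, 0.81) and MRPL48 (0.45, 0.77); in NUP93-KO MRPL11 (0.37, 0.71), MRPL24 (0.51, 0.85), MRPL33 (0.39, 0.73) and MRPL42 (0.40, 0.74); in EXOSC5-KO MRPL11 (0.46, 0.75), MRPL23 (0.55, 0.83), MRPL24 (0.56, 0.84), MRPL33 (0.52, 0.81) and MRPS33 (0.43, 0.72). These follow from the scaling itself, which sets the sum or the typical gene equal.

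In untreated EXOSC5-KO against NONT, 1 member (MRPL12) was called lower by median-of-ratios and at the same mitochondrial mRNA sum, where 3.64% and 5.21% of all genes were. At the same sum 2 members (MRPL24 and MRPS6) were called higher, and by median-of-ratios 1 (MRPS6), against 2.78% and 2.06% of all genes. With an untreated mean of at least 50, 5 members were called as losing less in NUP93-KO than in NONT, where 9.01% of all genes were. Leaving out 1 library gave 0 to 70 such members in NUP93-KO and 0 to 55 in EXOSC5-KO, the highest without untreated NONT replicate 1.

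The median of the members minus that of all genes was 0.0743, 0.0753 and 0.0786. It became −0.0222, 0.0220 and 0.0227 with a pseudocount of 5, and −0.193, −0.0941 and −0.109 without a filter on low values. In NONT it was 0.106 at the same sum, 0.107 by median-of-ratios and 0.1004 with the 5 mitoribosome proteins of other names. In NUP93-KO it was 0.0446 with the higher filter, 0.102 with the 5 proteins and 0.0477 without MRPL45 and MRPS36. For the differences in response it was 0.0461 and 0.0671 without a filter. Leaving out 1 library gave 0.0126 to 0.162, 0.0549 to 0.137 and 0.0630 to 0.127 for triptolide. The ranges were −0.0221 to 0.0305 and −0.0625 to −0.0160 for the untreated knockouts, and −0.0212 to 0.0296 and 0.0087 to 0.0656 for their differences in response. The cause of these shifts was not tested beyond what each setting changes.

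Replicate numbers did not pair the samples: over 15 pairs of groups the correlation of deviations was −0.05 to 0.04. With a replicate block 77, 56 and 62 members were called lower, against 77, 58 and 63 without it. The numbers called lower also moved when 1 library was left out. The share of all genes called is not given for these refits, so these counts are no result about the members. Summing gene IDs that share a symbol was not run, since 0 members share one. With 2 libraries per group and 0.51 between the untreated NONT libraries, the medians of the differences in response moved with the untreated NONT library left out, from 0.51 to 0.99 in NUP93-KO and from 0.35 to 0.86 in EXOSC5-KO.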
